A study of Mus musculus with 16 samples.

Results

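The 79 genes described here are the odorant receptors with symbols from Olfr1100 to Olfr1209, Olfr1151 apart, in the middle of the large receptor cluster on mouse chromosome 2. They are defined by symbol, among probe sets that carry exactly 1 gene symbol, and were proposed with earlier results of these data known. Each was measured by 1 probe set, and together they are 79 of 1091 odorant receptor genes and of 19505 genes on the array. Ordered by their place on the chromosome, they fall into 16 MOR families, an older naming in which receptors of similar protein sequence share the number before the dash. Olfr1173 carries no MOR name.

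All mice were S100a5-tauGFP animals, which carry a GFP reporter named for S100a5, a calcium-binding protein gene of olfactory sensory neurons whose level follows their activity. The 24 mice were 7 to 12 weeks old and of both sexes, and each stood alone for 40 h in a chamber flushed with clean air at 3.1 L/min. From 26 h onward they received 10 s pulses every 20 min of either octanol, a fatty alcohol, or filtered air as the vehicle. Olfactory mucosa was dissociated and sorted into GFP+ and GFP- cells, 3 mice to a sample, and RNA from each sample went onto 1 Clariom S array. This gave 4 groups of 4 arrays: vehicle GFP+, vehicle GFP-, octanol GFP+ and octanol GFP-. The vehicle mice carry the same reporter, both fractions of an exposure come from pooled mice, and the construct's driver is given only by the name of the line.

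An odorant receptor is a G protein-coupled receptor in the cilia of an olfactory sensory neuron. Each mature neuron expresses 1 receptor gene from 1 allele, so the RNA of a receptor in a sorted sample depends on how many neurons of that receptor were collected. Odor binding activates the G protein Golf and adenylate cyclase 3, cAMP opens a cyclic nucleotide-gated channel, and calcium entry then opens a chloride channel. Genes that follow activity, S100a5 among them, are higher in neurons whose receptor is often stimulated or is active without odor. The arrays read receptor RNA and measure neither odor binding nor the firing of a neuron.

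S100a5 itself, the gene of the sort, exceeded its GFP- level in GFP+ samples by 0.82 log2 in vehicle mice and 0.86 in octanol mice. Of 8 markers of mature neurons, 2 rose in GFP+ cells and none fell, whereas 5 of 6 immature neuron markers and all 4 measured progenitor markers fell after either exposure. The 7 neutrophil and monocyte markers were all lower in GFP+ cells, with a median difference of -8.19 log2 after vehicle and -6.70 after octanol. Their summed level was 10.94 to 11.73 log2 in vehicle GFP+ arrays and 18.74 to 19.41 in vehicle GFP- arrays, and 11.56 to 14.40 against 19.00 to 19.68 after octanol. All 3 horizontal basal cell markers lay under background, so those cells were not detected above it. Markers of supporting tissue were lower in GFP+ cells as well after either exposure: 4 of 5 for sustentacular cells, 3 of 4 for Bowman glands and 4 of 4 for microvillar cells. The part of these other cells in the receptor differences was not tested.

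Signal was read on the log2 scale as deposited, and a gene was taken as above background at more than 6.32 log2, a level that 95% of the 321 vomeronasal receptor genes stay under in their mean. Of the 79 receptors, 73 had a mean above it (92.4%), against 920 of the 1012 other odorant receptors (90.9%). On all 16 arrays 62 were above it, and 3 were above it on none. The 6 with a mean at or under it were Olfr1128, Olfr1141, Olfr1145, Olfr1158, Olfr1164 and Olfr1188. The spread between arrays of a group had a median SD of 0.41 log2 over the 79 receptors, against 0.43 for the other odorant receptors and 0.23 for all genes. It ran from 0.18 for Olfr1209 to 1.36 for Olfr1123.

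The first comparison asks which receptors are enriched in the GFP+ cells of unstimulated mice. After vehicle, 36 of the 79 receptors were higher in GFP+ cells and 21 were lower at an adjusted p under 0.05 in limma, and 22 passed in neither direction. Over all genes 14.7% were called higher and 13.5% lower, and over the other odorant receptors 434 of 1012 (42.9%) and 233 (23.0%). The shares for the 79 receptors, 45.6% and 26.6%, therefore lie near those of odorant receptors elsewhere in the genome. The median difference was 0.46 log2, against 0.41 for all odorant receptors and 0.13 for all genes. In a sorted sample, fewer neurons of a receptor and less of its RNA per neuron cannot be told apart.

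After octanol, 40 of the 79 receptors were higher in GFP+ cells, 18 were lower and 21 passed in neither direction, beside 16.7% of all genes higher and 13.2% lower. The shares for the 79 receptors, 50.6% and 22.8%, lay near those of the other odorant receptors, 46.8% and 21.5%. The median difference was 0.86 log2, against 0.58 for all odorant receptors and 0.14 for all genes. Of the 36 receptors higher after vehicle all 36 were higher after octanol, and 18 of the 21 lower ones were lower again. None was called in opposite directions by the exposures. The fractions of 1 pool were compared with each other, on the inference that the 2 arrays with 1 replicate number in an exposure came from the same mice. Where the scale was set by the median of the odorant receptors on each array, the split was 36 higher and 29 lower after octanol, 55.4% higher among those called against 69.0% as deposited. The median of all genes itself moved with the scale, after vehicle from 0.13 log2 on the deposited scale to 0.46 when each array was centred on its own median and to -0.17 on the receptor median.

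The largest differences were mostly falls. After vehicle 9 receptors were lower by more than 3 log2 and 1 was higher by as much, and after octanol 8 were lower and 4 higher. The plot in chromosome order shows the large falls spread singly through the first part of the cluster and frequent in its last part. There Olfr1176 and Olfr1178 are adjacent, and only Olfr1183 lies between Olfr1182 and Olfr1184 among the genes measured.

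**Figure D1:**
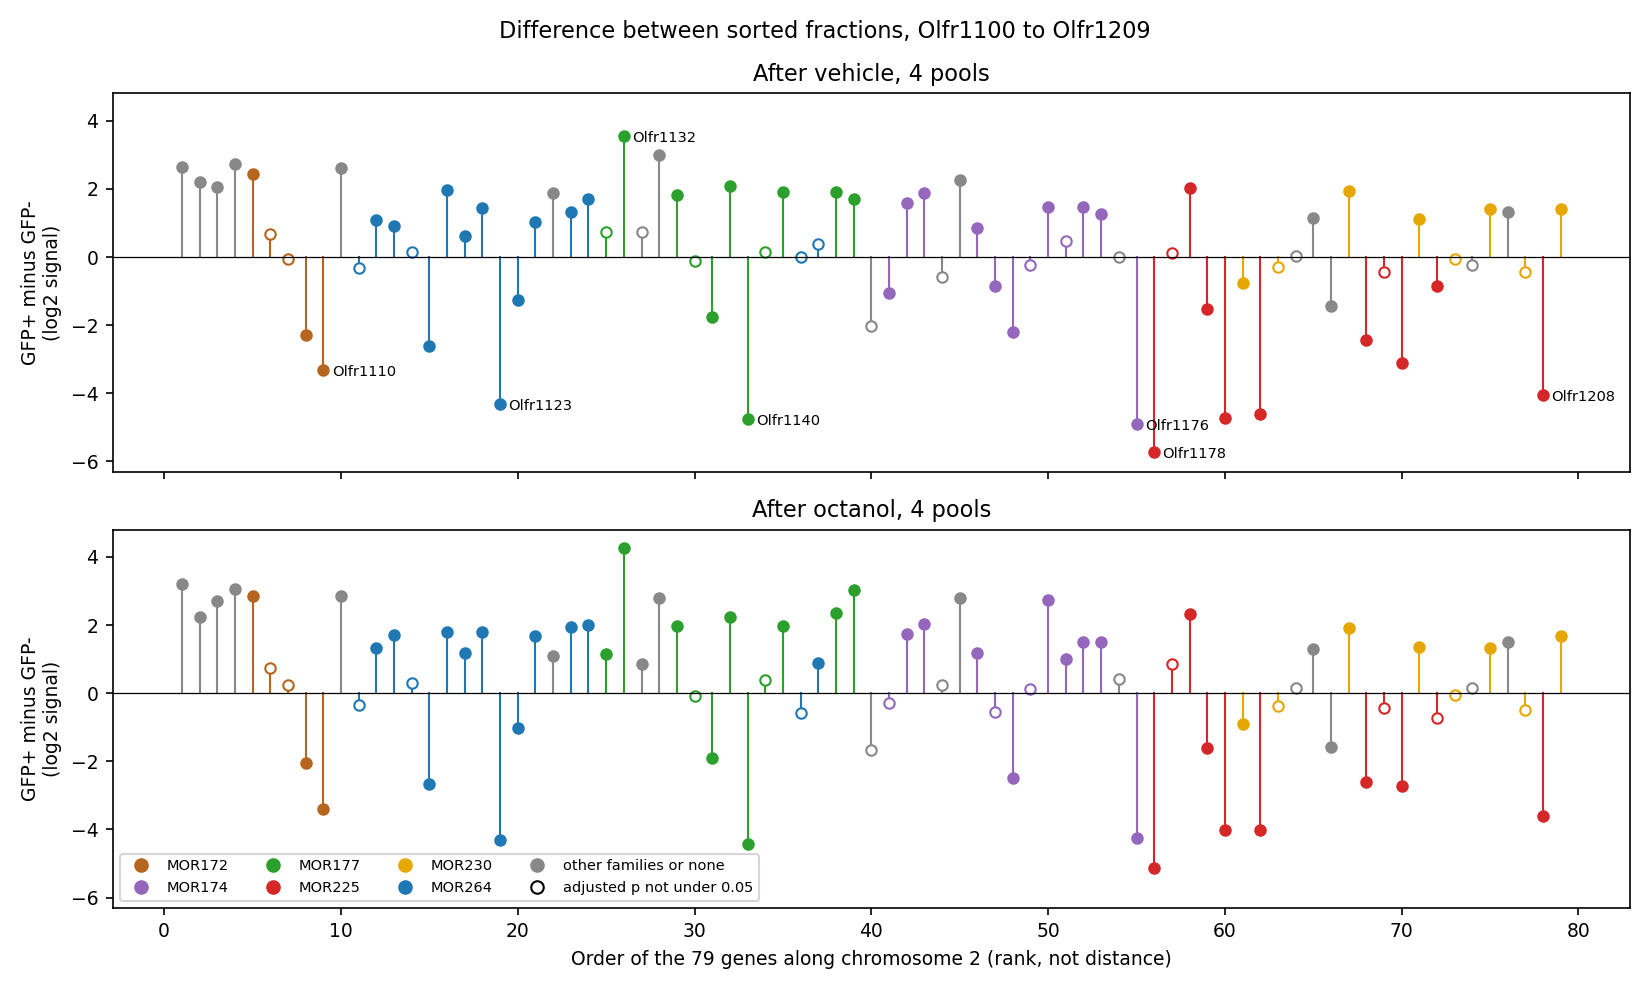
Difference between GFP+ and GFP- cells (log2 signal, y axis) for each of the 79 receptors in their order on chromosome 2 (rank, x axis), after vehicle (top) and after octanol (bottom), 4 pools each, coloured by MOR family. Filled points had an adjusted p under 0.05 in limma and open points did not; the deepest point is Olfr1178 at -5.72 after vehicle and the highest is Olfr1132 at 4.26 after octanol.

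The MOR225 family held 5 of the 10 largest falls after vehicle, the largest included. Its 11 receptors lie between Olfr1178 and Olfr1208, and 8 of them were lower in GFP+ cells after vehicle, 1 was higher and 2 passed in neither direction. After octanol 7 were lower and 1 was higher, with the same 7 lower after both exposures. The family median was -2.43 log2 after vehicle and -2.60 after octanol, and it lay between -2.20 and -2.65 in each of the 4 vehicle pools and between -1.42 and -2.90 in the 4 octanol pools. Among the 121 odorant receptor families with at least 3 measured genes, this was the fourth lowest median after vehicle and the third lowest after octanol. Medians below 0 were not rare, with 42 of the 121 families below 0 after vehicle and 36 after octanol. Every MOR225 receptor measured on the array is among the 79, and the counts are those of single-gene tests, with no test of the family as a whole.

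Olfr1178 read 7.62, 5.32, 6.32 and 7.04 log2 in GFP+ cells and 12.17, 12.82, 11.98 and 12.22 in GFP- cells after vehicle. All GFP+ arrays stood over 4 log2 units below the lowest GFP- array, and 1 GFP+ array, that of pool 2, was under background. The difference was -5.72 log2 (SE 0.39, adjusted p = 3e-06), at least 44.4-fold with values under background raised to it. After octanol its GFP+ arrays read 7.19, 6.74, 7.16 and 7.80 log2 and its GFP- arrays 12.30, 12.52, 12.30 and 12.31, a difference of -5.14 log2 (SE 0.39, adjusted p = 6.02e-06).

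Olfr1182 had 7.07, 7.53, 7.03 and 7.05 log2 in GFP+ cells and 11.49, 12.12, 11.65 and 12.32 in GFP- cells after vehicle. The groups were far apart, and the difference of -4.73 log2 (SE 0.24, adjusted p = 4.03e-07) is 26.5-fold lower in GFP+ cells. Its octanol arrays, at 7.99, 7.67, 7.29 and 7.68 log2 in GFP+ cells and 10.96, 12.15, 11.65 and 11.93 in GFP- cells, gave -4.02 log2 (SE 0.24, adjusted p = 1.06e-06), 16.2-fold lower.

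Olfr1184, 2 measured genes further along, stood at 6.61, 6.20, 5.31 and 7.44 log2 in GFP+ cells and 10.97, 10.99, 11.11 and 10.97 in GFP- cells after vehicle. Only 2 of its 4 vehicle GFP+ arrays were above background, and the difference was -4.62 log2 (SE 0.31, adjusted p = 2.73e-06). On octanol arrays the signal was 6.72, 6.68, 7.12 and 7.10 log2 in GFP+ cells and 10.95, 11.30, 10.64 and 10.75 in GFP- cells, with all 4 GFP+ arrays above background and a difference of -4.0 log2 (SE 0.31, adjusted p = 6.91e-06).

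Olfr1208, near the far end of the set, showed 6.96, 7.12, 7.39 and 7.59 log2 in GFP+ cells and 11.30, 11.55, 11.10 and 11.31 in GFP- cells after vehicle, a difference of -4.05 log2 (SE 0.27, adjusted p = 2.68e-06), 16.5-fold lower in GFP+ cells. It showed 7.79, 7.59, 6.52 and 7.54 log2 in GFP+ cells and 10.43, 11.40, 11.17 and 10.88 in GFP- cells after octanol, a difference of -3.61 log2 (SE 0.27, adjusted p = 5.64e-06). Olfr1198 stood at 8.52, 8.15, 7.94 and 8.14 log2 in GFP+ cells and 10.82, 11.53, 11.28 and 11.55 in GFP- cells after vehicle and was 8.61-fold lower in GFP+ cells (-3.11 log2, SE 0.22, adjusted p = 3.59e-06). Neither gene's groups overlapped after either exposure, and Olfr1198 was 6.56-fold lower after octanol (-2.71 log2, SE 0.22, adjusted p = 9.11e-06).

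Smaller falls came from Olfr1196, at -2.43 log2 (SE 0.29, adjusted p = 0.000143) after vehicle and -2.60 log2 (SE 0.29, adjusted p = 9.15e-05) after octanol, and from Olfr1181, at -1.54 log2 (SE 0.35, adjusted p = 0.00916) and -1.61 log2 (SE 0.35, adjusted p = 0.00695). Olfr1200 read 13.71, 12.44, 14.14 and 13.84 log2 in GFP+ cells and 14.30, 14.32, 14.50 and 14.43 in GFP- cells after vehicle, with groups that did not overlap and a difference of -0.86 log2 (SE 0.25, adjusted p = 0.0303). After octanol it missed the threshold, at -0.74 log2 (SE 0.25, adjusted p = 0.051). Its vehicle call did not hold without pool 1, 2 or 4, where the adjusted p was 0.0566, 0.101 and 0.0558.

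Olfr1197 was bright in every group, at 14.64, 14.30, 15.11 and 15.13 log2 in GFP+ cells and 15.19, 15.40, 15.26 and 15.11 in GFP- cells after vehicle, and its groups overlapped. Its difference was -0.45 log2 (SE 0.22, adjusted p = 0.155) after vehicle and -0.43 log2 (SE 0.22, adjusted p = 0.165) after octanol. Olfr1179 overlapped fully after vehicle, with a difference of 0.13 log2 (SE 0.38, adjusted p = 0.825), and had 0.86 log2 (SE 0.38, adjusted p = 0.12) after octanol.

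Olfr1180 was the exception in direction. It read 10.89, 9.72, 10.87 and 10.76 log2 in GFP+ cells and 8.55, 8.54, 8.44 and 8.55 in GFP- cells after vehicle, so that the lowest GFP+ array stood above the highest GFP- array. The rise was 2.04 log2 (SE 0.31, adjusted p = 0.000775), 4.11-fold, and after octanol, with 11.27, 10.48, 10.56 and 11.09 log2 in GFP+ cells and 9.03, 8.91, 8.73 and 7.49 in GFP- cells, it was 2.31 log2 (SE 0.31, adjusted p = 0.000332), 4.97-fold. It lies between Olfr1179 and Olfr1181, and Olfr1181, its neighbour and family member, fell. With arrays centred on their own median Olfr1179 was called higher too after octanol, so 2 of the 11 were then higher.

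**Figure D2:**
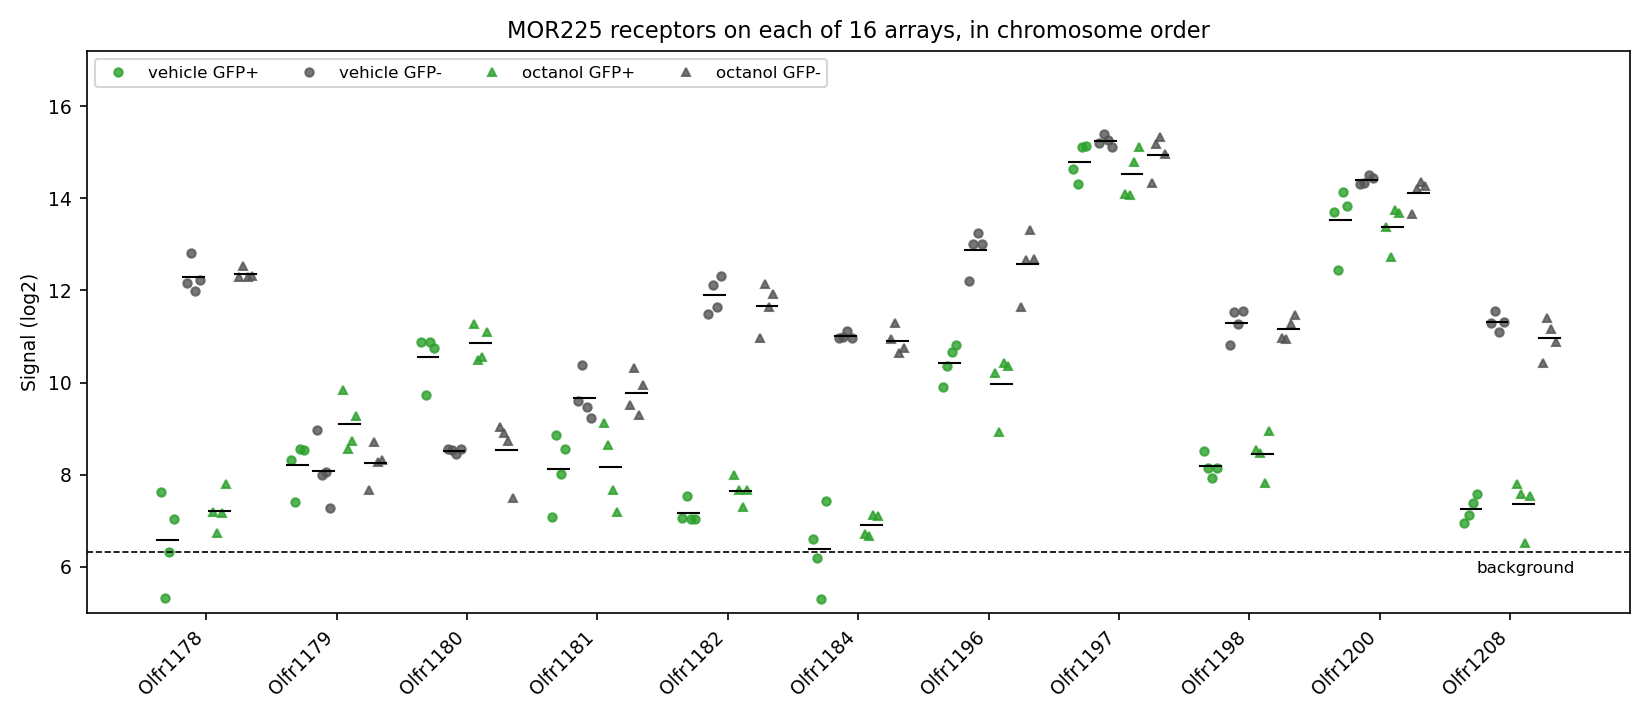
Signal (log2, y axis) of the 11 MOR225 receptors in chromosome order (x axis) on each of the 16 arrays: circles after vehicle, triangles after octanol, green GFP+ and grey GFP-, with a bar at each group mean and a dashed line at background (6.32). Olfr1178, Olfr1182, Olfr1184, Olfr1198 and Olfr1208 have GFP+ arrays far below GFP- arrays, and Olfr1180 has the opposite order.

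The DNA before 4 of these genes is shown because receptors of 1 family and 1 stretch of chromosome went opposite ways. Receptor promoters are known for sites of LIM homeodomain proteins such as Lhx2, whose core is TAATTA or TAATGA, and of Ebf proteins, which bind CCCNNGGG. These 3 motifs were searched on both strands in windows of 300 bases, 250 before and 50 after each RefSeq start on build GRCm38.p6. Windows were found for 73 of the 79 receptors, 74 in all, and 51 of the 74 starts are at an ATG, where the gene model begins with the coding sequence and the start of transcription may lie elsewhere. The 250 bases before the start are given 5′ to 3′ on the strand of the gene, the minus strand for all 4, with matches in capitals. Olfr1180 (MOR225, higher) is at chr2:88412690-88412939, Olfr1182 (MOR225, lower) at chr2:88449122-88449371, Olfr1208 (MOR225, lower) at chr2:88897649-88897898, and Olfr1199 (MOR230, higher) at chr2:88760486-88760735.
Olfr1180: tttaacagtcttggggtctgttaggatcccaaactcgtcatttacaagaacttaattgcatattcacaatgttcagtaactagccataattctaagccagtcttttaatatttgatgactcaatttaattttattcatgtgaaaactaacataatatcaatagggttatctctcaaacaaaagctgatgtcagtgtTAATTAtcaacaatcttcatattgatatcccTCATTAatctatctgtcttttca
Olfr1182: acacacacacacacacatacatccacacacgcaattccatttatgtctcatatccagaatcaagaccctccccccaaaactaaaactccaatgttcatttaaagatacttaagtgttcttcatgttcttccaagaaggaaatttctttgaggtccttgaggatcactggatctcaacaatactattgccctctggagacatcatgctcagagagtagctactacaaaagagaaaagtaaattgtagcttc
Olfr1208: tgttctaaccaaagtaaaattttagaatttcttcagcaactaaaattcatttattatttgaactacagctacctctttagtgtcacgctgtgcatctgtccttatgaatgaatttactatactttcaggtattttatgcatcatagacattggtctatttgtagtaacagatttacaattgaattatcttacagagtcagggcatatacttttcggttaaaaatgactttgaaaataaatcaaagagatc
Olfr1199: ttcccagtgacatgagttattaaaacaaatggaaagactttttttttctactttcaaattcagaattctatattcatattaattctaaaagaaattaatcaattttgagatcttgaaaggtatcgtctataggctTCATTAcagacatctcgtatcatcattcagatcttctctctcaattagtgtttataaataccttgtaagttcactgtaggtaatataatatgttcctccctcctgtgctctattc

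Olfr1180 holds 1 TAATTA and 1 TAATGA, the latter on the other strand as TCATTA, and Olfr1199 holds 1 TAATGA on the other strand. Neither motif, nor CCCNNGGG, was found before Olfr1182 or Olfr1208. The 4 windows do not stand for the family: of the 10 MOR225 windows, 4 held TAATTA and 2 TAATGA. The shares over larger sets are given with no test. TAATTA was in 5 of 15 windows of receptors lower after both exposures (33.3%) and in 10 of 36 windows of those higher after both (27.8%), with 17.8% of windows of other odorant receptors and 5.29% of all 32851 windows. TAATGA was in 1 of those 15 windows (6.67%) and in 15 of the 36 (41.7%), against 28.7% of other odorant receptor windows and 9.78% of all. CCCNNGGG was in 1 of the 74 windows (1.35%), against 3.04% and 13.7%. A match is a string of letters in a window, and binding was not measured.

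The MOR230 family lies among the MOR225 genes and was split. Of its 8 receptors, 4 rose in GFP+ cells under each exposure (Olfr1195, Olfr1199, Olfr1205 and Olfr1209) and 1, Olfr1183, fell, with family medians of 0.54 log2 after vehicle and 0.64 after octanol. With each array centred on its receptor median, 3 were lower after vehicle and 4 after octanol. Olfr1195 read 12.44, 11.76, 12.32 and 12.69 log2 in GFP+ cells and 10.68, 10.92, 9.98 and 9.86 in GFP- cells after vehicle. Its groups did not overlap, and it was 3.85-fold higher (1.95 log2, SE 0.27, adjusted p = 0.000482). The next gene, the MOR225 receptor Olfr1196, was 5.41-fold lower, at 9.91, 10.36, 10.66 and 10.81 log2 in GFP+ cells and 12.21, 13.01, 13.25 and 13.01 in GFP- cells, and its groups did not overlap either.

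Olfr1199 had 10.47, 10.60, 10.57 and 10.38 log2 in GFP+ cells and 9.27, 10.08, 9.40 and 8.80 in GFP- cells after vehicle, with every GFP+ array above every GFP- array and a rise of 1.12 log2 (SE 0.21, adjusted p = 0.00303). It lies between Olfr1198 and Olfr1200, both MOR225 and both lower. Olfr1209, the last gene of the set, stood at 12.75, 12.50, 12.87 and 12.93 log2 in GFP+ cells and 11.47, 11.47, 11.17 and 11.29 in GFP- cells, a rise of 1.42 log2 (SE 0.15, adjusted p = 7.32e-05), directly after Olfr1208 with its fall. Olfr1205 rose by 1.40 log2 after vehicle and 1.33 after octanol.

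Olfr1183, between the strongly lower Olfr1182 and Olfr1184, read 9.89, 9.78, 10.82 and 10.94 log2 in GFP+ cells and 11.39, 10.83, 11.34 and 10.92 in GFP- cells after vehicle, and the highest GFP+ array reached into the GFP- range. Its difference was -0.77 log2 (SE 0.23, adjusted p = 0.0337), and -0.91 log2 (SE 0.23, adjusted p = 0.0151) after octanol. The vehicle call was lost without pool 1, 2 or 3 and the octanol call without pool 2, 3 or 4. Olfr1186, Olfr1201 and Olfr1206 passed in neither direction, with differences between -0.50 and -0.05 log2.

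**Figure D3:**
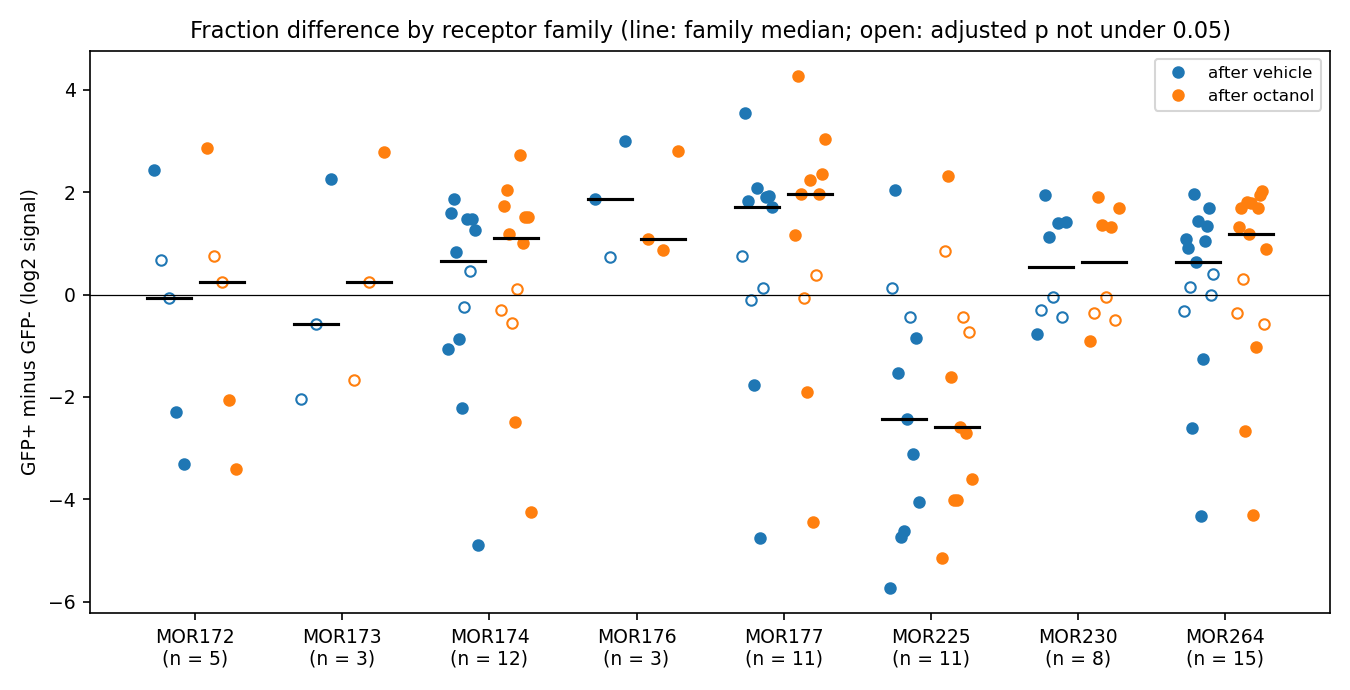
Difference between GFP+ and GFP- cells (log2 signal, y axis) of each receptor in the 8 MOR families with at least 3 members (x axis), after vehicle (blue) and after octanol (orange), with a line at the family median. Filled points had an adjusted p under 0.05; MOR225 has its medians at -2.43 and -2.60, and MOR177 has its medians at 1.71 and 1.96 with Olfr1140 far below the rest.

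The set opens with a run of rises, unbroken among the genes measured. Olfr1100 (MOR206), Olfr1101 and Olfr1102 (MOR179), Olfr1104 (MOR207) and Olfr1105 (MOR172) were all higher in GFP+ cells after both exposures. For the first 4 the rise was 2.06 to 2.73 log2 after vehicle and 2.23 to 3.21 after octanol, and for Olfr1105 only a bound can be given. They come from 4 families. Olfr1100 read 11.60, 12.03, 11.38 and 11.43 log2 in GFP+ cells and 9.63, 9.03, 9.10 and 8.17 in GFP- cells after vehicle, 6.18-fold higher in GFP+ cells (2.63 log2, SE 0.23, adjusted p = 1.56e-05), and 9.24-fold higher after octanol (3.21 log2, SE 0.23, adjusted p = 3.82e-06). Olfr1104 had 12.19, 11.87, 11.28 and 12.19 log2 in GFP+ cells and 8.93, 8.99, 9.58 and 9.12 in GFP- cells, and was 6.62-fold higher after vehicle (2.73 log2, SE 0.30, adjusted p = 8.39e-05) and 8.29-fold after octanol. No group of either gene overlapped its counterpart.

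Olfr1102 read 12.41, 11.71, 11.88 and 11.96 log2 in GFP+ cells and 10.30, 9.48, 9.45 and 10.52 in GFP- cells after vehicle, a rise of 2.06 log2 (SE 0.16, adjusted p = 6.59e-06). After octanol it read 12.75, 12.54, 11.89 and 12.28 log2 in GFP+ cells and 9.73, 9.92, 9.26 and 9.76 in GFP- cells, a rise of 2.70 log2 (SE 0.16, adjusted p = 1.06e-06), and neither pair of groups overlapped. Olfr1101 rose by 2.19 log2 after vehicle and 2.23 after octanol. Olfr1105 was measured in GFP+ cells only: its GFP- arrays lay under background in both exposures, from 4.87 to 5.77 log2. Its GFP+ arrays read 8.37, 7.56, 7.44 and 7.65 log2 after vehicle and 8.56, 8.44, 7.85 and 7.29 after octanol. The gene was at least 2.71-fold higher in GFP+ cells after vehicle and at least 3.29-fold after octanol, with the GFP- arrays raised to background.

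The run ends within the MOR172 family, whose 5 receptors split. Olfr1105 rose, Olfr1106 and Olfr1107 passed in neither direction (0.67 log2, SE 0.32, adjusted p = 0.142 and -0.07 log2, SE 0.18, adjusted p = 0.807), and Olfr1109 and Olfr1110 fell. Olfr1109 read 7.54, 7.23, 7.40 and 7.25 log2 in GFP+ cells and 9.52, 9.89, 9.47 and 9.71 in GFP- cells after vehicle, 4.90-fold lower (-2.29 log2, SE 0.21, adjusted p = 2.76e-05). Olfr1110 stood at 10.60, 8.40, 10.58 and 10.72 log2 in GFP+ cells and 13.44, 13.36, 13.30 and 13.46 in GFP- cells, with the GFP+ array of pool 2 over 2 log2 units below the other 3. It was 9.95-fold lower after vehicle (-3.31 log2, SE 0.41, adjusted p = 0.000186) and 10.6-fold lower after octanol (-3.40 log2, SE 0.41, adjusted p = 0.000156).

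The next gene, Olfr1111, the only MOR181 receptor of the set, went the other way. It read 11.93, 10.56, 11.29 and 11.83 log2 in GFP+ cells and 8.78, 9.06, 8.72 and 8.64 in GFP- cells after vehicle, 6.07-fold higher in GFP+ cells (2.60 log2, SE 0.26, adjusted p = 4.71e-05), and was 7.20-fold higher after octanol. Olfr1110 and Olfr1111 are 1 of the 2 pairs of neighbours in which both genes differed by more than 2 log2 in opposite directions after both exposures.

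The 15 MOR264 receptors follow, from Olfr1112 to Olfr1148, with other families among them. Of these, 8 rose and 3 fell after vehicle and 9 rose and 3 fell after octanol, with medians of 0.63 and 1.19 log2. The rises were moderate, at most 1.96 log2 after vehicle (Olfr1120). Olfr1120 read 11.25, 10.83, 10.73 and 10.91 log2 in GFP+ cells and 9.11, 10.08, 8.24 and 8.45 in GFP- cells after vehicle, a rise of 1.96 log2 (SE 0.30, adjusted p = 0.000753). Olfr1130 read 11.16, 10.01, 10.93 and 11.03 log2 in GFP+ cells and 9.12, 9.55, 8.68 and 9.0 in GFP- cells, a rise of 1.70 log2 (SE 0.29, adjusted p = 0.00158). Neither gene's groups overlapped. Of the 3 falls, 2 were larger than these rises. Olfr1118 read 7.74, 7.36, 7.96 and 7.55 log2 in GFP+ cells and 9.85, 10.36, 10.32 and 10.52 in GFP- cells after vehicle, 6.10-fold lower (-2.61 log2, SE 0.18, adjusted p = 3.23e-06), and 6.32-fold lower after octanol.

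Olfr1123 was the most variable receptor of the set in GFP+ cells. Its vehicle GFP+ arrays read 8.35, 6.0, 10.22 and 10.22 log2, with pool 2 under background, and its GFP- arrays 12.64, 13.0, 13.02 and 13.40. Pools 3 and 4 were thus higher than pools 1 and 2, and after octanol the GFP+ arrays were split in the same way, at 6.83, 7.13, 10.49 and 9.52. All 8 GFP+ arrays still lay below all 8 GFP- arrays, and the differences were -4.32 log2 (SE 0.68, adjusted p = 0.000973) and -4.31 log2 (SE 0.68, adjusted p = 0.000985). Olfr1124, the third to fall, had -1.26 log2 (SE 0.30, adjusted p = 0.011) and -1.02 log2 (SE 0.30, adjusted p = 0.0282), and its octanol call was lost without pool 1, 2 or 4.

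A run of 4 rises lies at Olfr1126 (MOR264), Olfr1128 (MOR176), Olfr1129 and Olfr1130 (MOR264). Olfr1126 rose by 1.04 log2 after vehicle (adjusted p = 0.0163), a call lost without pool 1, 3 or 4, and by 1.69 after octanol (0.00101). Olfr1128 was dim: its GFP+ arrays read 6.73, 6.96, 6.78 and 6.61 log2 after vehicle and its GFP- arrays were under background in both exposures. Its rise was at least 1.37-fold after vehicle. After octanol only 1 of 4 GFP+ arrays was above background.

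The other MOR176 receptors are Olfr1133 and Olfr1134, and of the 3 genes of that family 2 rose after vehicle and 3 after octanol. With only genes whose mean is above background, which leaves out Olfr1128, 1 rose after vehicle and 2 after octanol. Olfr1134 read 11.20, 10.96, 11.17 and 11.18 log2 in GFP+ cells and 8.37, 9.07, 8.12 and 6.97 in GFP- cells after vehicle and was 7.99-fold higher in GFP+ cells (3.0 log2, SE 0.28, adjusted p = 2.91e-05), and 6.98-fold higher after octanol. Its GFP- arrays varied by over 2 log2 units, but none reached the GFP+ arrays. Olfr1133 missed the threshold after vehicle (0.74 log2, SE 0.29, adjusted p = 0.0846) and passed it after octanol (0.86 log2, SE 0.29, adjusted p = 0.0479), though not without pool 1, 2 or 4.

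The 11 MOR177 receptors had the highest medians among the families with more than 3 members in the set, 1.71 log2 after vehicle and 1.96 after octanol. Of them 6 rose and 2 fell after vehicle, and 7 rose and 2 fell after octanol. Olfr1132 showed the largest rise of the whole set. It read 10.37, 10.37, 10.11 and 9.79 log2 in GFP+ cells and 6.80, 7.28, 6.47 and 5.90 in GFP- cells after vehicle. After octanol it read 11.58, 10.86, 10.09 and 10.33 log2 in GFP+ cells and 6.53, 6.81, 6.45 and 6.03 in GFP- cells. The groups were far apart, and 3 of 4 GFP- arrays were above background under each exposure. The rise was 3.55 log2 (SE 0.21, adjusted p = 1.02e-06), at least 10.9-fold, and 4.26 log2 (SE 0.21, adjusted p = 3.63e-07), at least 18.2-fold.

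Olfr1143 read 13.53, 13.32, 13.69 and 14.14 log2 in GFP+ cells and 12.03, 11.62, 11.67 and 11.75 in GFP- cells after vehicle. Olfr1152 read 11.16, 11.14, 10.97 and 11.07 log2 in GFP+ cells and 9.56, 9.26, 9.06 and 8.78 in GFP- cells. They were 3.74-fold and 3.79-fold higher in GFP+ cells, with groups that did not overlap, and rose by 1.96 and 2.35 log2 after octanol. Olfr1153 had 9.73, 8.99, 9.44 and 9.14 log2 in GFP+ cells and 8.71, 8.21, 6.66 and 6.89 in GFP- cells after vehicle, a rise of 1.71 log2 (SE 0.36, adjusted p = 0.00637). After octanol it had 10.0, 10.12, 9.37 and 9.86 log2 in GFP+ cells and 7.30, 8.11, 5.53 and 6.29 in GFP- cells, a rise of 3.03 log2 (SE 0.36, adjusted p = 0.000158), and 2 of the 4 GFP- arrays were under background.

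Olfr1137, Olfr1138 and Olfr1140 are neighbours of the MOR177 family and alternate in direction. Olfr1138 read 8.85, 9.41, 8.42 and 8.95 log2 in GFP+ cells and 6.77, 7.15, 6.95 and 6.46 in GFP- cells after vehicle, 4.20-fold higher (2.07 log2, SE 0.15, adjusted p = 4.16e-06) and 4.74-fold higher after octanol. Olfr1140 read 7.62, 8.73, 7.50 and 8.66 log2 in GFP+ cells and 12.92, 12.64, 12.79 and 13.16 in GFP- cells, 26.9-fold lower (-4.75 log2, SE 0.37, adjusted p = 7e-06), and after octanol 7.91, 8.69, 9.55 and 7.93 log2 in GFP+ cells and 13.34, 13.37, 12.42 and 12.69 in GFP- cells, 21.6-fold lower (-4.43 log2, SE 0.37, adjusted p = 1.1e-05). Olfr1138 and Olfr1140 are the second pair of opposite neighbours past 2 log2. Olfr1137 varied more, at 7.33, 9.54, 7.06 and 8.07 log2 in GFP+ cells and 9.70, 9.06, 9.93 and 10.41 in GFP- cells, with 1 GFP+ array, that of pool 2, inside the GFP- range. It fell by 1.77 log2 (adjusted p = 0.0242), a call that did not hold without pool 1, 3 or 4, so that 1 MOR177 receptor was then lower.

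The MOR173 and MOR174 genes follow. Of the 3 MOR173 receptors Olfr1160 rose, from 9.16, 8.0, 9.01 and 7.85 log2 in vehicle GFP- arrays to 11.28, 10.83, 10.21 and 10.72 in GFP+ arrays, 4.77-fold (2.26 log2, SE 0.36, adjusted p = 0.00112), and 6.89-fold after octanol. Olfr1154 had 9.79, 11.35, 7.80 and 11.27 log2 in GFP+ cells and 12.34, 11.49, 12.72 and 11.79 in GFP- cells, lower in GFP+ cells in all 4 pools but by unequal amounts, and missed the threshold (-2.03 log2, SE 0.78, adjusted p = 0.0786). It passed with no block for the pool (adjusted p = 0.0336) and without pool 2 (0.0488). Olfr1158 was near background in every group.

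Among the 12 MOR174 receptors, 6 rose and 4 fell after vehicle, and 7 rose and 2 fell after octanol, with medians of 0.65 and 1.10 log2. Olfr1157 read 12.55, 12.51, 12.14 and 12.05 log2 in GFP+ cells and 10.45, 10.47, 10.77 and 10.09 in GFP- cells, 3.65-fold higher (1.87 log2, SE 0.13, adjusted p = 3.67e-06), and Olfr1156 rose 3.01-fold (1.59 log2, SE 0.21, adjusted p = 0.000335). Olfr1176 carried the largest fall of the family. It stood at 8.57, 8.92, 7.88 and 9.0 log2 in GFP+ cells and 13.56, 13.51, 13.62 and 13.22 in GFP- cells after vehicle and 9.06, 9.06, 8.90 and 8.46 log2 in GFP+ cells and 13.04, 12.86, 13.23 and 13.33 in GFP- cells after octanol, 29.6-fold and 18.9-fold lower in GFP+ cells (-4.89 log2, SE 0.24, adjusted p = 3.7e-07 and -4.24 log2, SE 0.24, adjusted p = 8.3e-07). It is the measured gene just before Olfr1178, so the lowest members of 2 families are adjacent.

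Olfr1163 was lower as well, by 2.21 log2 after vehicle and 2.49 after octanol, with only 2 of 4 GFP+ arrays above background each time. Olfr1155 and Olfr1162 fell after vehicle (-1.06 log2, SE 0.23, adjusted p = 0.0078 and -0.86 log2, SE 0.19, adjusted p = 0.00882) and missed the threshold after octanol (-0.30 log2, SE 0.23, adjusted p = 0.367 and -0.56 log2, SE 0.19, adjusted p = 0.0559). The difference between exposures was itself not called for either gene.

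Of the families with 1 or 2 members here, MOR237 (Olfr1189) rose by 1.13 and 1.29 log2 and MOR226 (Olfr1193) fell. Olfr1193 was bright in both fractions, at 13.77, 11.93, 14.39 and 14.40 log2 in GFP+ cells and 15.15, 14.74, 15.26 and 15.07 in GFP- cells after vehicle, with the GFP+ array of pool 2 lowest. Its groups did not overlap, and it was 2.70-fold lower after vehicle (-1.43 log2, SE 0.33, adjusted p = 0.00927) and 2.99-fold lower after octanol. Of the 2 MOR232 receptors Olfr1204 rose, by 1.33 and 1.49 log2, the vehicle call being lost without pool 3 or 4, and Olfr1202 passed in neither direction. Olfr1188 (MOR238) was under background in its mean.

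Neighbouring receptors did not share their direction as a rule. Of 78 neighbouring pairs of the 79 receptors, 38 had both genes called after vehicle, and in 23 of these the direction was the same (60.5%) and in 15 opposite. Among neighbouring pairs of other odorant receptors it was the same in 300 of 432 (69.4%). Within a family the direction was shared in 12 of 20 pairs (60.0%), against 196 of 270 elsewhere (72.6%), and across families in 11 of 18 (61.1%), against 104 of 162 (64.2%). These shares are descriptions with no test, since adjacent pairs share a gene. Runs of at least 4 genes called in 1 direction after both exposures were 3 in number: Olfr1100 to Olfr1105 and Olfr1126 to Olfr1130, higher, and Olfr1181 to Olfr1184, lower. The last run rests on Olfr1183, and the second on Olfr1126 (vehicle call lost without pool 1, 3 or 4) and the dim Olfr1128.

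The flanking stretches of the same cluster had other proportions. Of the 71 receptors from Olfr987 to Olfr1099, 40 were higher and 11 lower after vehicle, with a median of 0.94 log2. Of the 88 from Olfr1210 to Olfr1317, 31 were higher and 31 lower, with a median of 0.13. The 79 receptors between them, with 36 and 21 and a median of 0.46, lay between these values, and after octanol, with 40 and 18 against 47 and 10 and 35 and 27, they did so again. The difference between stretches was not tested.

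The second question is whether octanol changed the receptors' place between the fractions. The GFP+ to GFP- ratio after octanol was set against that after vehicle, and no receptor of the 79 passed an adjusted p of 0.05 in limma, nor did any of the 19505 genes (0%). At an unadjusted p under 0.05 the ratio was higher in 7 receptors and lower in 1, where 4.54% of all genes passed in either direction. For the 1012 other odorant receptors these counts were 58 and 8. The median change of the ratio was 0.25 log2, with 61 of the 79 receptors above 0. It was 0.17 over all odorant receptors, of which 790 of 1091 were above 0, and 0.03 over all genes. With each array centred on its receptor median, the median over the 79 was 0.05.

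The 4 octanol pools did not overlap the 4 vehicle pools in the ratio of 4 receptors, where 1.55% of all genes had such a rise and 1.04% such a fall. The ratio was higher for Olfr1102, Olfr1115 and Olfr1155 and lower for Olfr1128. Olfr1115 read 8.97, 9.08, 9.44 and 9.09 log2 in GFP+ cells and 8.54, 8.24, 8.04 and 8.14 in GFP- cells after vehicle and 9.22, 9.48, 8.96 and 9.56 log2 in GFP+ cells and 7.74, 7.79, 7.24 and 7.67 in GFP- cells after octanol. The difference between fractions was 0.90 log2 in one and 1.70 in the other, a change of 0.79 (95% confidence interval 0.33 to 1.25, adjusted p = 0.998). Its GFP- arrays were lower after octanol and its GFP+ arrays overlapped.

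Olfr1128, the receptor with the smallest unadjusted p in the ratio, 0.00233, changed by -0.78 log2 (interval -1.21 to -0.35), and its GFP- arrays were under background throughout. Only 1 of its 4 octanol GFP+ arrays was above background, so its change has no reliable size. Olfr1155 changed by 0.77 (0.02 to 1.51) and Olfr1102 by 0.64 (0.14 to 1.14). The largest fitted changes were in Olfr1153, 1.32 log2 (0.17 to 2.47), and Olfr1166, 1.26 (0.38 to 2.13). Only 2 of the 4 octanol GFP- arrays of Olfr1153 were above background, so its change has no reliable size or rank. Olfr1166 read 9.13, 9.89, 8.80 and 8.81 log2 in GFP+ cells and 7.59, 8.90, 6.84 and 7.41 in GFP- cells after vehicle and 10.73, 10.15, 9.12 and 9.83 log2 in GFP+ cells and 6.78, 7.60, 7.22 and 7.30 in GFP- cells after octanol. The pools overlapped for both genes, and the adjusted p was 0.998 for each receptor named.

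Octanol and vehicle were also compared within each fraction, 4 arrays against 4. In GFP+ cells 0 receptors and 0 of 19505 genes (0%) passed in limma. At an unadjusted p under 0.05, 7 receptors were higher and 1 lower, where 3.73% of all genes passed. Among the 1012 other odorant receptors 19 were higher and 15 lower. The median difference was 0.09 log2 for the 79 receptors and 0.01 for all genes. Olfr1179 was the 1 receptor whose groups did not overlap, where 1.25% of genes had such a rise. It read 9.84, 8.55, 8.74 and 9.28 log2 after octanol and 8.31, 7.42, 8.55 and 8.53 after vehicle, with the lowest octanol array level with the highest vehicle array to 2 decimals. The difference was 0.90 log2 (interval 0.18 to 1.61, adjusted p = 1). Olfr1182, which was lower in GFP+ cells after both exposures, was higher by 0.49 (0.11 to 0.87). Olfr1128 differed by -0.57 (-0.95 to -0.20), with only 1 of its 4 octanol arrays above background.

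In GFP- cells 0 receptors and 0 genes (0%) passed. At an unadjusted p under 0.05 none was higher and 7 were lower, where 4.58% of all genes passed. Of the 1012 other odorant receptors, 9 were higher and 103 lower at that threshold. The median difference was -0.12 log2 for the 79 receptors, -0.16 for all odorant receptors and -0.02 for all genes. Its sign depended on the scale, since it was 0.04 with each array centred on its receptor median. Olfr1115 and Olfr1126 were lower without overlap, where 1.51% of genes were. Olfr1126 read 8.47, 9.30, 8.88 and 9.20 log2 in octanol GFP- arrays and 9.45, 9.79, 9.51 and 9.88 in vehicle ones, a difference of -0.69 (interval -1.12 to -0.27, adjusted p = 0.982). Olfr1115 differed by -0.63 (-0.99 to -0.28), and Olfr1158, near background, by -0.80 (-1.48 to -0.13).

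**Figure D4:**
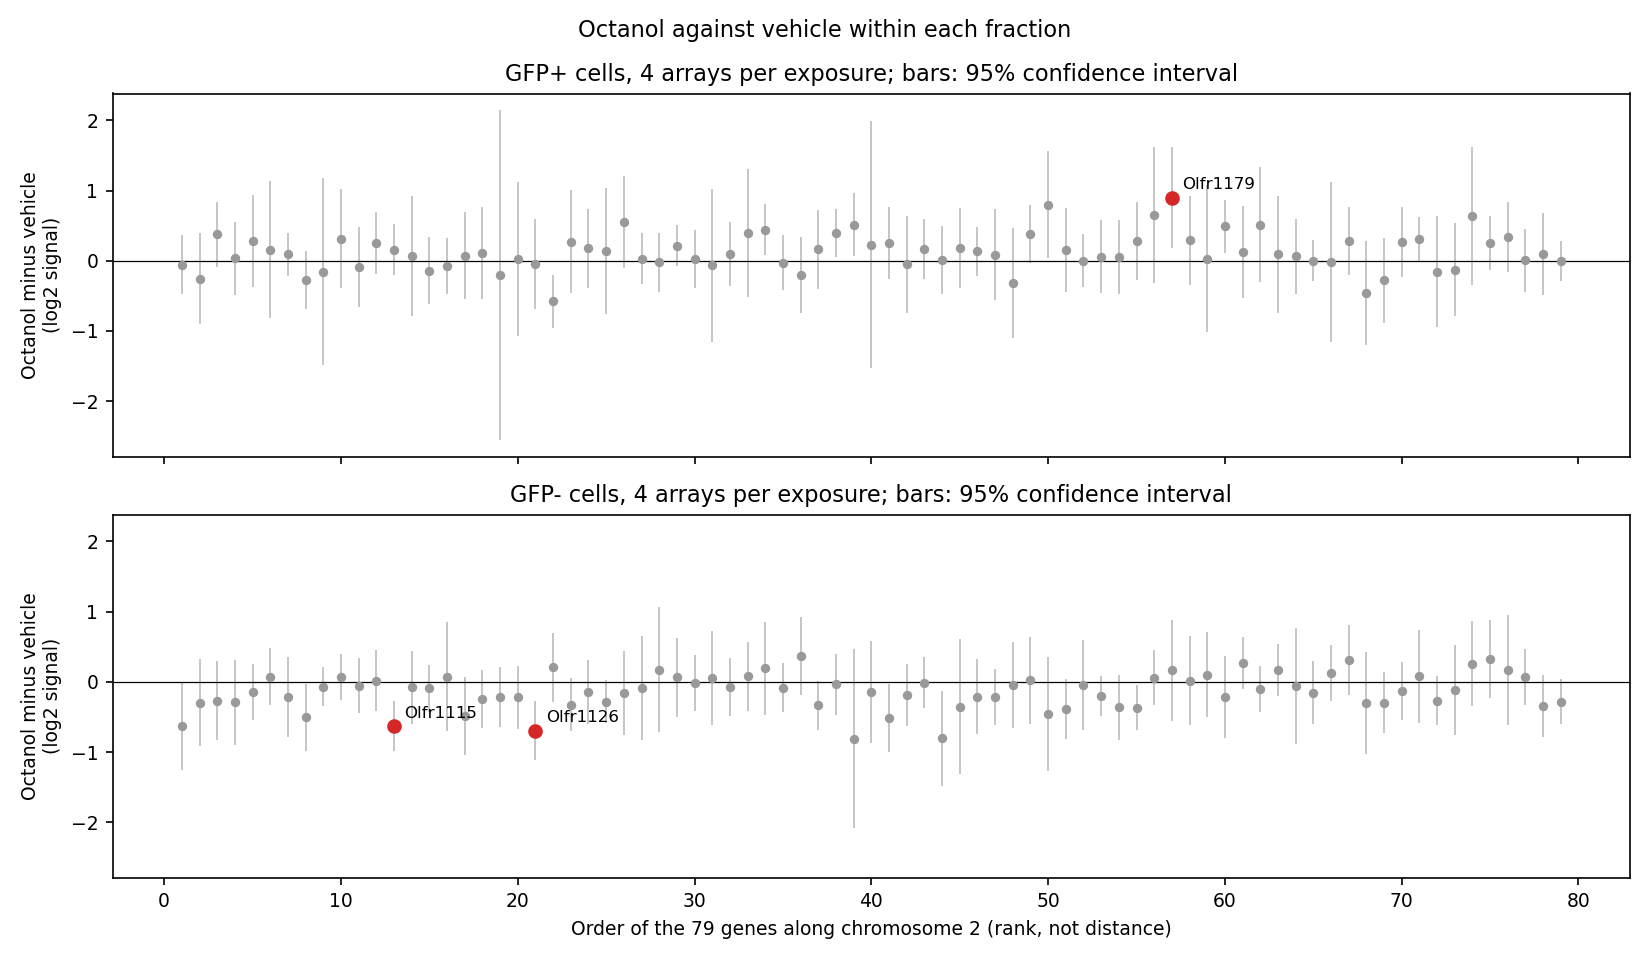
Octanol minus vehicle (log2 signal, y axis) for each of the 79 receptors in chromosome order (rank, x axis) in GFP+ cells (top) and GFP- cells (bottom), 4 arrays per exposure, with 95% confidence intervals from limma. Red points are the receptors whose arrays do not overlap between exposures: Olfr1179 at 0.90 above, and Olfr1115 at -0.63 and Olfr1126 at -0.69 below; no receptor passed an adjusted p of 0.05.

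These comparisons limit the size of change that could have been missed, receptor by receptor, where the signal is above background. The 95% confidence interval lay within 1 log2 of 0 for 59 of the 79 receptors in GFP+ cells, for 69 in GFP- cells and for 26 in the ratio. The counts in GFP+ and in GFP- cells include Olfr1141, Olfr1145 and Olfr1164, with no array above background. The count in GFP- cells also includes Olfr1105 and Olfr1128, under background on every GFP- array. At background a narrow interval does not limit a change of RNA. The median distance from the estimate to its bound was 0.56, 0.47 and 0.76 log2. The widest interval in GFP+ cells was that of Olfr1123, from -2.56 to 2.15.

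The genes that carry the receptors' signal and those that choose the receptor were read beside them. Of 22 olfactory signalling genes 20 were measured, of which 8 rose and 1 fell in GFP+ cells under vehicle, and 10 and 1 under octanol. Slc8a1, a sodium-calcium exchanger, was higher by 1.05 log2 after vehicle, Pde1c, a cilium phosphodiesterase that breaks down cAMP, by 0.67, and Slc24a4, the potassium-dependent sodium-calcium exchanger of the response's end, by 0.67. Ano2, the chloride channel, was higher by 0.50, and Omp, the marker of mature neurons, differed by 0.07 (adjusted p = 0.613). Grk3, a receptor kinase, was called lower, but its mean lay under background after vehicle in GFP+ cells (5.10 log2) and close to it in GFP- cells (6.42), so its difference has no reliable size. Of 16 regulators of receptor choice none was higher and 1, Lbr, was lower after vehicle (-1.83), the lamin B receptor that is known to be low in mature neurons. After octanol Ebf2 and Atf5 were higher, by 0.31 and 0.28, and Lbr was lower. The calls of Ebf2 and Atf5 lay just under the threshold (adjusted p = 0.0447 and 0.0499 in limma). No gene of either list was called for octanol in either fraction.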

How the data were processed

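The authors deposited log2 signals for the 16 Clariom S arrays, computed with Affymetrix Expression Console per the submitters' processing notes; no source used here gives the program's version or settings. The values were kept as deposited, with a range of 2.22 to 18.7 log2 and array medians of 7.42 to 7.70. Probe sets with exactly 1 gene symbol were kept (19572 of 28846), and for each gene the one with the highest mean over 16 arrays (19505 genes). The signal of a probe set cannot be compared with that of another as a transcript level.

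Limma 3.58.1 in R 4.3.3 (lmFit and eBayes, two-sided) was fitted across all genes, with Benjamini-Hochberg adjustment over all 19505 and a threshold of 0.05. The fraction differences and the change of the ratio were fitted on 16 arrays, each pool having its own term (6 residual degrees of freedom), and octanol against vehicle used 8 arrays per fraction. SE is the moderated standard error. That the 2 fractions with 1 replicate number in an exposure come from the same mice is inferred from 24 mice in pools of 3. Deviations from group means correlated at 0.08 to 0.22 within such pairs, 0.1 or more in 6 of 8, and at 0.06 to 0.33 between arrays of different mice with the same number, so the check leaves the pairing unsettled. Each sample is a pool of 3 mice. The fits were tested on simulated data.

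The receptors and gene lists were chosen with earlier results of these data known. Receptors were named by rule: the 10 largest rises and falls per exposure with the same sign in all 4 pools, the 5 with the highest and the 5 with the most and the least variable signal, those with the smallest p for octanol or without overlap, up to 4 per MOR family, runs of at least 4 neighbours, and opposite neighbours. Others are named to complete a family or a pair, after their values were seen. A part of the rule on protein identity was not used here. MOR numbers, gene order and promoter windows come from RefSeq tables of GRCm38.p6, matched by Entrez number for all 79. Alternatives covered the block, scaling, background filter, probe set choice, prior, a minimum difference of 1 log2 and each pool left out.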

Additional observations from a re-analysis of the deposited data

Results flagged for a closer look

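The largest and smallest arrays of 192 groups of 4 (48 named receptors) were set against the rest of their group, and 12 stood apart by more than Dixon's 95% critical value, where chance gives about 5% of groups. In GFP+ cells after vehicle these were Olfr1110 in pool 2, at 8.40 log2 with its nearest array at 10.58, Olfr1134 in pool 2, at 10.96 (nearest 11.17), Olfr1182 in pool 2, at 7.53 (7.07), and Olfr1189 in pool 1, at 10.98 (10.60). In GFP- cells after vehicle they were Olfr1184 in pool 3, at 11.11 (10.99), and Olfr1189 in pool 3, at 9.03 (9.68).

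In GFP+ cells after octanol the arrays apart from their group were Olfr1133 in pool 1, at 9.73 (9.09), Olfr1163 in pool 4, at 5.27 (6.24), and Olfr1193 in pool 2, at 12.78 (13.82). In GFP- cells after octanol they were Olfr1128 in pool 1, at 5.45 (5.04), Olfr1178 in pool 2, at 12.52 (12.31), and Olfr1189 in pool 3, at 9.85 (9.29). The values for Olfr1128 and Olfr1163 lay under background. None of these gaps reversed the direction of a fraction difference when its pool was left out.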

How the results depend on the processing

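With arrays centred on the median of the odorant receptors, 29 receptors were lower in GFP+ cells after octanol in place of 18, and that scale also gave 33 higher and 26 lower after vehicle. Under the other scalings, filters and fits the counts stayed within 1.5 times those reported, at 33 to 41 higher and 18 to 22 lower after vehicle and 38 to 45 higher and 17 to 22 lower after octanol. Leaving out 1 pool at a time gave 33 to 35 higher and 18 to 20 lower after vehicle and 38 to 40 higher and 15 to 18 lower after octanol, with 4 or 5 and 2 to 4 calls lost and no called receptor changing sign. With no replicate block, 35 were higher and 22 lower after vehicle and 40 and 17 after octanol, and with the pool as a random replicate block (correlation 0.18) the counts were 36 and 22, and 40 and 20. For octanol against vehicle and for the ratio, every alternative that was run gave 0 receptors. A block on the replicate number that an octanol and a vehicle pool share was run for octanol against vehicle only.

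Calls that depended on the setting were those of Olfr1106, Olfr1126, Olfr1133, Olfr1137, Olfr1154, Olfr1155, Olfr1158, Olfr1179, Olfr1197 and Olfr1200 among the receptors named by rule, and the cause was not tested. Of the other receptors in the text, which were followed only when 1 pool was left out, Olfr1124, Olfr1183 and Olfr1204 lost a call and Olfr1145, Olfr1148, Olfr1173 and Olfr1206 gained one. The number of MOR230 receptors lower in GFP+ cells ranged from 0 to 3 after vehicle and from 0 to 4 after octanol. The 4 arrays of a group limit the precision, and 6 receptors lay at or under background, where a difference is a bound at most. Pairs of receptors with near-identical proteins were not analysed here, and signal shared between related receptors on the probes was not tested.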

Other observations

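Members that lie outside the 79 receptors did not all go the same way as those of their family inside. Of the 2 MOR264 receptors outside the set, 1 was lower after vehicle, at -5.38 log2, and 1 passed in neither direction, at 0.11. The 15 inside had a median of 0.63 and ranged from -4.32 to 1.96. The 5 MOR179 receptors outside were higher in 3 cases after vehicle and 4 after octanol and lower in none, as were both inside. Of the 7 MOR232 receptors outside, 3 were higher and 1 lower after vehicle. The 2 outside MOR172 were both higher, whereas the 5 inside were split 1 to 2. No test was made between these groups of genes.

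The GFP+ array of vehicle pool 2 had the lowest median over the 79 receptors among the vehicle GFP+ arrays, 9.80 log2 against 10.07 to 10.17 in the other 3. Its median over the other odorant receptors was the highest of the 4, 10.09 against 9.71 to 9.86. After octanol the GFP+ array of pool 2 was also lowest over the 79 receptors, at 10.14 log2 against 10.16 to 10.44. Its median over the other odorant receptors, 9.90, lay inside the range of the rest, 9.82 to 10.00. Deviations from group means correlated most between exposures for replicate number 2, at 0.23 in GFP+ cells and 0.33 in GFP- cells. Both pools were kept, and their part in the values above was not tested.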
